A study of Homo sapiens with 2 samples.

Results

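Keratins, claudins, desmosomal proteins and precursors of the cornified envelope are the structural proteins that give an epithelial cell its filaments, its junctions and, in squamous tissue, its hardened surface. Their transcripts were compared between 2 RNA samples of A549, an established human lung adenocarcinoma cell line. The cells had been transfected with a control siRNA (siCONTROL) or with an siRNA against p62/SQSTM1 (siP62), and total RNA was taken at 24 hours. An siRNA triggers the breakdown of mRNAs that match its sequence, and p62 is a receptor of selective autophagy that also binds the NRF2 repressor KEAP1. Each group held 1 Affymetrix whole-transcript array, so every difference below is between 2 arrays, carries no replicate error and was not tested. The number of siRNA sequences is not given in the sources used, and silencing of SQSTM1 cannot be told apart from other effects of the siRNA. SQSTM1 itself stood at 8.64 with siCONTROL and 7.30 with siP62, which left 39.5% of the control level.

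The members are all genes whose symbol begins with KRT, CLDN, CDH, DSG, DSC, PKP, TJP or LCE followed by a number, or with SPRR, together with EPCAM, OCLN, DSP, JUP and VIM. Probe sets with exactly 1 gene symbol in the platform annotation gave 128 such genes, of 14884 named in all. Below, a listed gene is called on the array only where it was matched to such a probe set. Other listed genes were not analysed, and the array may still hold probes for them. Values are log2 values after RMA, a method that scales the arrays alike and gives 1 value per probe set. Where a gene had several probe sets, that with the highest mean stood for it. A member is called measured where at least 1 array had a value of 5.35 or more, which is the median over all named probe sets and both arrays. This limit is no detection call. Of the members 32 were measured (25.0%), against 53.1% of all named genes. In 28 of these both arrays lay at or above the limit. SPRR2A, CLDN5 and KRT85 passed through the siP62 array alone, and LCE2A passed through the siCONTROL array alone. The members just inside the limit were KRT85 (5.40), LCE2A (5.41) and CLDN5 (5.47), and the nearest outside it was KRT31 (5.23).

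In a simple epithelium, type I and type II keratins pair into filaments that desmosomes anchor at the cell surface. Claudins and occludin form the sealing strands of tight junctions, which the TJP (ZO) proteins tie to actin, and the claudins present decide which ions pass. In stratified squamous epithelium the SPRR and LCE proteins are cross-linked into the cornified envelope. Normal alveolar epithelium is simple and makes no cornified envelope. The labelled epithelial origin was checked against KRT7, KRT8, KRT18, KRT19 and EPCAM, and all 5 were measured in both arrays. E-cadherin (CDH1), which was also on the marker list, was not among the named genes and was not analysed here. Among markers of other cell types, none of the 5 squamous and basal genes on the array was measured, the highest being KRT14 with 4.10 in the siP62 array. Measured were 2 of 4 leukocyte, 2 of 5 endothelial, 1 of 2 fibroblast and 2 of 6 alveolar type II markers on the array. The macrophage lysosome gene CD68, which many cell lines express, was 8.48 with siCONTROL and 8.42 with siP62. The other measured leukocyte marker, CD14, was 5.98 and 5.94. The fibroblast marker LUM (5.02 and 5.49) passed the limit through the siP62 array alone. The type II cell surfactant genes SFTPD (5.85 and 5.27) and SFTPB (5.66 and 5.30) passed the limit through the siCONTROL array alone, and the median difference of all 6 type II markers was 0.015. The bulk RNA cannot tell fewer cells of a kind from less RNA in each cell.

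The sequences before the start sites are given for the members with the largest differences that had an entry in the RefSeq promoter table (GRCh38.p14). Those of the relatives SPRR2F and SPRR2B are also given, since SPRR2A differed between the arrays and its relatives, all below the limit, differed little. Each run holds the 250 bases before the start site, 5′ to 3′ on the gene's strand. Capitals mark matches, on either strand, to 6 motifs, which are TGANTCA (AP-1), ATTTGCAT (octamer), GGAATG (TEAD), CACCTG (an E-box), TGACNNNGC (antioxidant response) and TTTCNNTTC (interferon response). SPRR2A lies at chr1:153057513-153057762, SPRR2F at chr1:153113517-153113766, SPRR2B at chr1:153071612-153071861 and CLDN1 at chr3:190322447-190322696, all on the minus strand. OCLN has 2 start sites in the table, and the first, on the plus strand at chr5:69492297-69492546, is shown.
SPRR2A: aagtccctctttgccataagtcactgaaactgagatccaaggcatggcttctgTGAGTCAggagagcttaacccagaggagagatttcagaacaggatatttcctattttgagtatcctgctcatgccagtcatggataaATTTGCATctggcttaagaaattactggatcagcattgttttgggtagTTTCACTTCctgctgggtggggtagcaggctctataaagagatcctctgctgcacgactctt
SPRR2F: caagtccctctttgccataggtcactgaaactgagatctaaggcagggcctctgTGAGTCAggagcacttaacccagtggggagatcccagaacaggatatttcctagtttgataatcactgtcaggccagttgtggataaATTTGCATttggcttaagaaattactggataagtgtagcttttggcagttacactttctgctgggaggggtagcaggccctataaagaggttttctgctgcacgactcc
SPRR2B: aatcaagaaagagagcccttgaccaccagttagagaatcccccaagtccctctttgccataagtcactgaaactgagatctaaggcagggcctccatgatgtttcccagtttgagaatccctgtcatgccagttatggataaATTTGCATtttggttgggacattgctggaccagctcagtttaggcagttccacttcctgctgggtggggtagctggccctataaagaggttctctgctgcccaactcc
CLDN1: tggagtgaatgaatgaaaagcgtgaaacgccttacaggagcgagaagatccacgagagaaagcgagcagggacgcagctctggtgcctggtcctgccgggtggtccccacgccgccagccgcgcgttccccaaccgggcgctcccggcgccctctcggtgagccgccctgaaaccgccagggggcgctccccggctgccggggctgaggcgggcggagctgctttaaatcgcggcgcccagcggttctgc
OCLN: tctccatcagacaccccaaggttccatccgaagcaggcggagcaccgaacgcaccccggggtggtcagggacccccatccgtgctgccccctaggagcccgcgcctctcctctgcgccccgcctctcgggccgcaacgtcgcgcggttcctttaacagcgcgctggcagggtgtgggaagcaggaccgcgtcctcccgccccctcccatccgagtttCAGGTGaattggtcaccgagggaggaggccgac
The SPRR2A run holds the AP-1 letters, the octamer and, 62 bases before the start site, TTTCACTTC, a match to the interferon response letters. The SPRR2F run, identical to that of SPRR2A at 85.5% of aligned bases, holds the AP-1 letters and the octamer but not TTTCNNTTC. The SPRR2B run (84.1%) holds the octamer alone. The SPRR2G run, not shown, was identical to that of SPRR2A at 65.1% of aligned bases and holds the AP-1 letters alone. Gap bases, which these shares leave out, numbered 2 for SPRR2F, 86 for SPRR2B and 70 for SPRR2G. The shares for SPRR2F and SPRR2B thus do not make the 2 runs equally like that of SPRR2A. SPRR2C, SPRR2D and SPRR2E were not compared with SPRR2A in this way, so no motif is shown to set SPRR2A apart from all its relatives. None of the 6 motifs is in the CLDN1 run, and the first OCLN run holds CAGGTG, the E-box read on the other strand. Of 35114 promoter entries, 6.57% hold TGANTCA, 1.63% ATTTGCAT, 11.9% GGAATG, 17.5% CACCTG, 10.9% TGACNNNGC and 6.56% TTTCNNTTC in the same window. These matches describe letters, and binding was not measured. No entry of the table matched CLDN5, KRT80 or PKP2.

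Of the 32 measured members 3 were at least 1.5-fold higher in the siP62 array, namely SPRR2A, CLDN1 and CLDN5, against 2.08% of the 7896 measured genes. None was 1.5-fold lower, against 1.60%. Once the median difference of all measured genes was subtracted, the 164 higher and 126 lower genes of this background became 127 and 154, and the 3 members stayed. SPRR2A and CLDN5 passed the limit through their siP62 value alone, so that they had to differ in that direction. CLDN1 was the only member past 1.5-fold among the 28 with both arrays at or above the limit, against 1.53% of the 7404 such genes, and none of the 28 was 1.5-fold lower, against 1.34%. At 2-fold, 2 of the 32 were higher (SPRR2A and CLDN1), against 0.165% of the measured genes, and none was lower, against 0.228%. The measured members had a median difference of 0.095 on the log2 scale, siP62 minus siCONTROL, beside 0.04 over all measured genes. Of the 32 members 21 were higher and 11 lower (19 and 12, with 1 equal, after subtraction of the median difference), beside 4379 higher and 3302 lower of all measured genes. A difference of 0.2 or less was found for 62.5% of the members and 62.4% of all measured genes, so these shares were near equal. Without CLDN1 and SPRR2A the median was 0.065. With no limit, 6 of all 128 members were 1.5-fold higher and 3 lower, against 2.05% and 2.14% of all named genes.

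**Figure D1:**
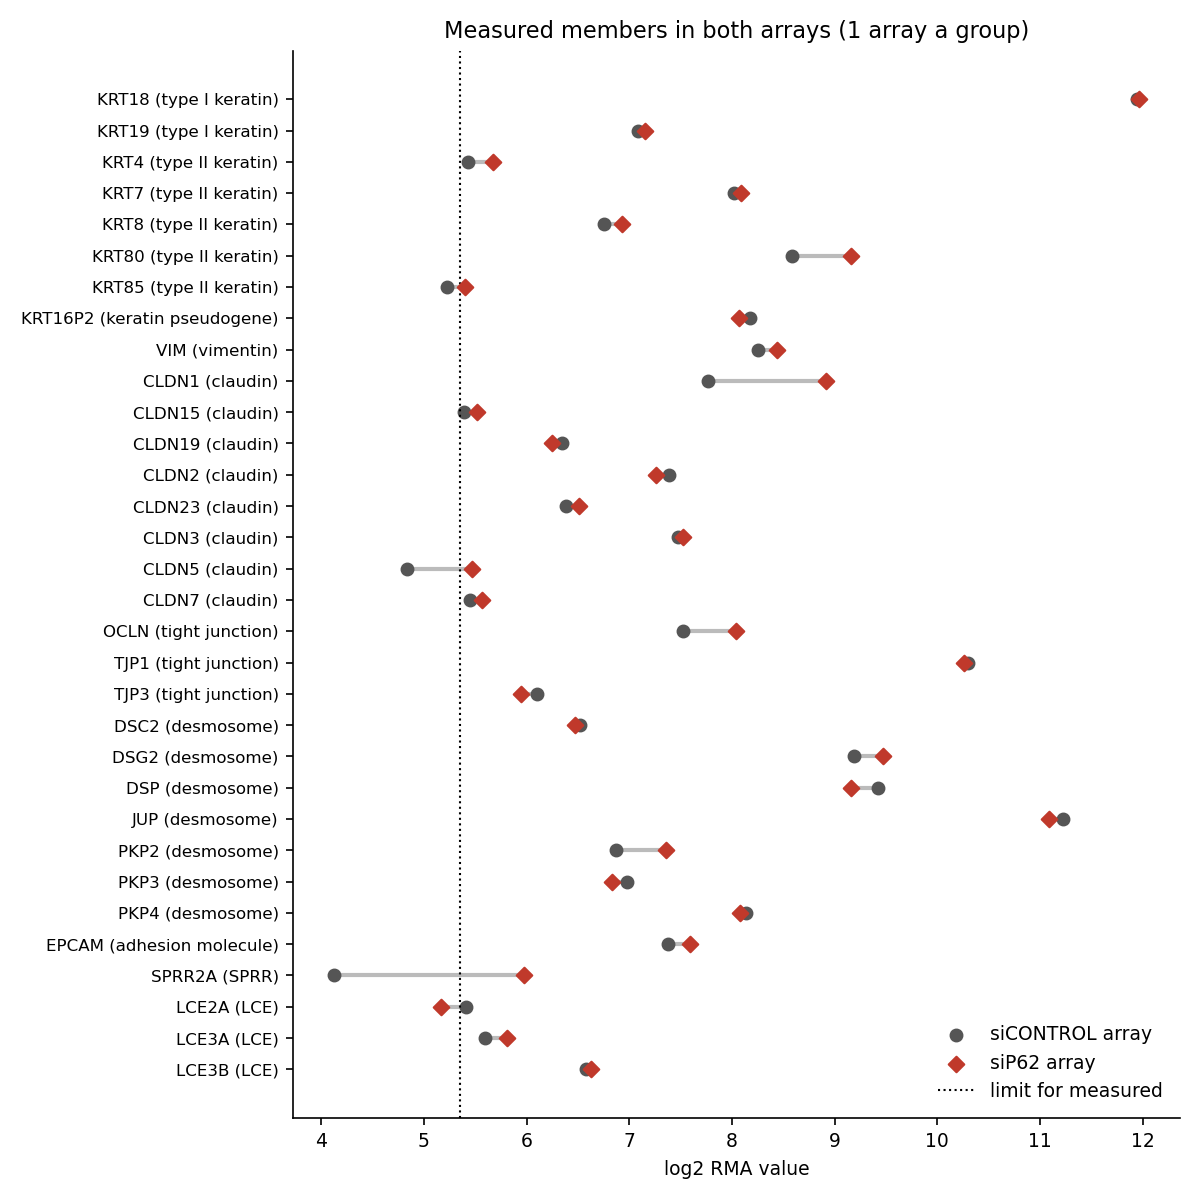
Log2 RMA values of the 32 measured members (horizontal axis) in the siCONTROL array (grey circles) and the siP62 array (red diamonds), 1 array a group and no error bars; the dotted line is the limit of 5.35. The longest connecting lines belong to SPRR2A (4.12 to 5.98) and CLDN1 (7.77 to 8.92), and the symbols of KRT18, KRT19 and KRT7 nearly coincide.

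The claudins differed unequally, with CLDN1 apart from the rest. CLDN1, a sealing claudin, was at a log2 value of 7.77 with siCONTROL and 8.92 with siP62. Both values lay well above the limit, and the level in the siP62 array was 2.22-fold higher, a difference of 1.15. All measured genes were put into 20 bins of like mean level. In the bin of CLDN1 the differences had a robust SD, computed from absolute deviations about the median, of 0.19, and CLDN1 ranked 2 of 394 from the top. This SD is a spread over genes, not over replicates. CLDN1 was read by 1 probe set.

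The other claudins with both arrays at or above the limit differed by -0.13 to 0.13. CLDN2, which forms a pore for cations and opposes sealing, was 7.39 with siCONTROL and 7.26 with siP62. CLDN3, a sealing claudin, was 7.48 and 7.52, so that these values nearly coincided. CLDN7, a claudin of many simple epithelia, was 5.45 and 5.57. CLDN23 was 6.38 and 6.51, CLDN15, a pore-forming claudin of the gut, was 5.39 and 5.52, and CLDN19, a claudin of kidney and nerve, was 6.35 and 6.25. Over all 8 measured claudins the median difference was 0.125, with 6 higher and 2 lower, and without CLDN1 it was 0.12.

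CLDN5, the main claudin of blood vessel endothelium, was 4.84 with siCONTROL and 5.47 with siP62, a difference of 0.63. The control value lay below the limit, so no fold is given. Of the 5 endothelial markers on the array, which include CLDN5 itself, ESAM was also higher (5.85 and 6.15), while PECAM1 (2.92 and 3.14), KDR (3.30 and 3.14) and VWF (3.83 and 3.63) lay below the limit in both arrays. Without CLDN5 the summed log2 level of the other 4 was 15.90 with siCONTROL and 16.06 with siP62, with 2 higher and 2 lower, and its part in the CLDN5 value was not tested.

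The 16 claudins below the limit had a median difference of -0.135, with 5 higher, 10 lower and 1 equal. The lung-enriched CLDN18 was 4.93 with siCONTROL and 4.61 with siP62, and CLDN4, a sealing claudin common in epithelia, was 4.29 and 4.31. The highest difference among them was that of CLDN8 (0.51, from 2.08 to 2.59) and the lowest that of CLDN9 (-0.36, from 5.18 to 4.82). At these levels neither array is shown to lie above background.

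OCLN, which encodes the tetraspan protein occludin of the tight junction strand, was 7.52 with siCONTROL and 8.04 with siP62, 1.43-fold higher. It ranked 10 of 395 from the top in its bin, where the robust SD was 0.22. TJP1 (ZO-1), a plaque protein that binds claudins and occludin, was 10.30 and 10.26, and TJP3 (ZO-3) was 6.10 and 5.95. Of these 3 members OCLN was higher, and TJP1 and TJP3 were lower by 0.04 and 0.15 on the log2 scale.

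The other tight junction genes, a list of 24, had 10 measured members among 16 on the array. Their median difference was 0.08, with 7 higher, 2 lower and 1 equal, and none past 1.5-fold. Relative to the median of all measured genes, 6 were higher and 4 lower. MARVELD2 (tricellulin), a relative of occludin found where 3 cells meet, was 6.12 with siCONTROL and 6.63 with siP62, a difference of 0.51. TJAP1, a tight junction associated protein, was 5.56 and 5.94, and MPDZ, a scaffold with many PDZ domains, was 7.98 and 8.20. CRB3, an apical polarity protein, went the other way with 6.46 and 6.22. The polarity scaffold PARD3 had 9.41 in both arrays.

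**Figure D2:**
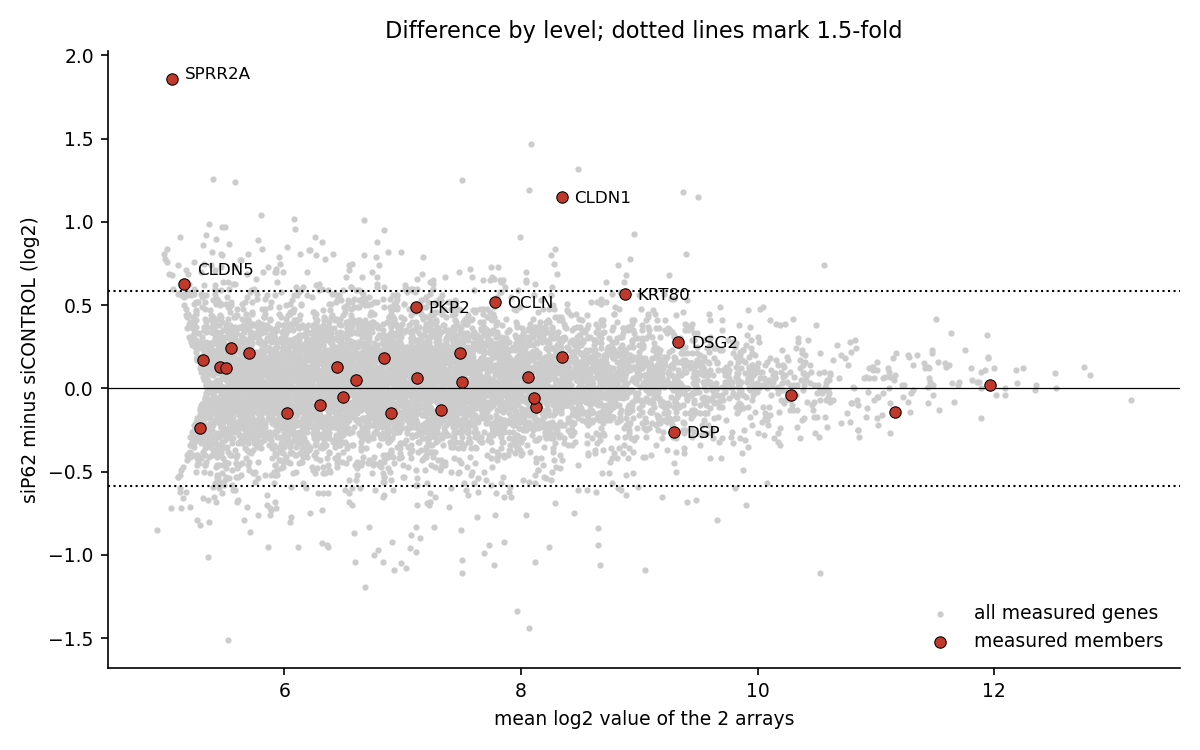
Difference siP62 minus siCONTROL (log2, vertical axis) against the mean log2 value of the 2 arrays for all 7896 measured genes (grey) and the 32 measured members (red); dotted lines mark 1.5-fold and members with a difference of at least 0.26 in size are labelled. SPRR2A (1.86) and CLDN1 (1.15) lie beyond the main grey cloud, CLDN5 (0.63) at its upper rim, and KRT80, OCLN and PKP2 between 0.49 and 0.57.

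Desmosomes join neighbouring cells through cadherins of the DSG and DSC families, which bind plakoglobin (JUP) and plakophilins, and desmoplakin (DSP) links these to keratin. Of the 13 desmosomal members 7 were measured, 2 higher and 5 lower, with a median difference of -0.06. PKP2, a plakophilin of simple epithelia and heart, was 6.87 with siCONTROL and 7.36 with siP62, 1.40-fold higher. It ranked 19 of 395 from the top in its bin (robust SD 0.21). DSG2, the desmoglein of simple epithelia, was 9.19 and 9.47, a difference of 0.28.

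The remaining 5 measured desmosomal members were lower by at most 0.26. DSP was 9.42 with siCONTROL and 9.16 with siP62 and ranked 25 of 395 from the bottom of its bin, where the robust SD was 0.18. JUP was 11.23 and 11.09, with a robust SD of 0.15 in its bin. DSC2, the desmocollin of simple epithelia, was 6.52 and 6.47. PKP3 (6.98 and 6.83) and PKP4 (8.14 and 8.08), further plakophilin family members, also differed little. The plakophilins thus differed in both directions, with 0.49 for PKP2, -0.15 for PKP3 and -0.06 for PKP4.

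Desmosomal genes of stratified epithelium lay below the limit in both arrays. DSG1 was 2.32 with siCONTROL and 2.27 with siP62, DSG3 was 3.08 and 3.06, and DSC3 was 5.07 and 4.62. DSG4 (2.59 and 2.35), DSC1 (2.87 and 2.73) and PKP1 (3.57 and 3.45) completed the 6. All 6 had a lower value in the siP62 array, by differences of -0.45 to -0.02. Of all named genes below the limit 51.3% were lower, and at these levels neither array is shown to lie above background. In a list of 13 other desmosome and hemidesmosome genes, 5 were on the array and measured, with 2 higher, 3 lower and a median of -0.04. The plakins DST, of hemidesmosomes and the cytoskeleton, and PLEC, which links filaments to membranes, were lower by 0.36 and 0.28 in log2 units, DST from 9.09 to 8.73 and PLEC from 8.23 to 7.95. The plakin PPL (periplakin) differed by 0.18, from 6.08 to 6.26.

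The only members of the cadherin rule were CDH23, a cadherin of hair cell tip links, and CDH26, and both lay below the limit. CDH23 was 4.69 with siCONTROL and 4.71 with siP62, and CDH26 was 4.88 and 4.29. The classical cadherins fall under the same rule but were not among the named genes, so they could not be analysed here. EPCAM, a homophilic adhesion molecule of simple epithelia, was 7.38 and 7.59, a difference of 0.21 that ranked 87 of 394 in its bin. In a list of 19 adherens junction partners, 8 of the 10 on the array were measured, 7 higher and 1 lower, with a median of 0.15. Of all measured genes 55.5% were higher, with a median of 0.04. NECTIN3, an immunoglobulin-like adhesion molecule that binds other nectins, was 6.82 with siCONTROL and 7.51 with siP62, a difference of 0.69. It was the only measured partner past 1.5-fold, against 2.08% of all measured genes that were 1.5-fold higher. NECTIN2 was 8.70 and 9.01, while vinculin (VCL), a plaque protein that binds actin, was 10.57 and 10.65. Of 15 gap junction and pannexin genes listed, only PANX1 (7.46 and 7.41) and PANX2 (6.96 and 7.01), which form membrane channels, were matched to a probe set with 1 symbol. The others were not analysed, so their levels are not known here.

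The simple epithelial keratins had nearly equal values in both arrays, and KRT80 was higher. KRT18, the type I keratin of simple epithelia, was 11.95 with siCONTROL and 11.97 with siP62, and its second probe set was 7.84 and 7.89. These levels lay far apart, and neither probe set was checked against copies of KRT18, so its level is uncertain. KRT8, the type II partner of KRT18, whose probe set is listed under a non-coding transcript record, was 6.75 and 6.93. KRT19 was 7.09 and 7.15, and KRT7 was 8.02 and 8.09. These 4 genes thus differed by 0.02 to 0.18, each less than the robust SD of its bin.

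KRT80, a type II keratin that has been located near desmosomes, was 8.59 with siCONTROL and 9.16 with siP62. The level was 1.48-fold higher, just short of the 1.5-fold line, and ranked 8 of 395 in its bin (robust SD 0.19). KRT7, the next keratin member along the same chromosome in the RefSeq gene table, differed by 0.07. KRT4, a type II keratin of stratified mucosa, was 5.43 and 5.67, and KRT85, a hair keratin, was 5.23 and 5.40, both close to the limit. Of the 7 measured keratins all were higher as deposited, with a median of 0.17, but after subtraction of the median difference 6 were higher and KRT18 was lower (-0.02). Without KRT80 the median was 0.12.

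The other 40 keratins lay below the limit, 18 higher, 19 lower and 3 equal, with a median difference of 0.00. Among them were the basal pair KRT5 (2.63 with siCONTROL and 2.70 with siP62) and KRT14 (3.75 and 4.10). The pair of the upper epidermis, KRT1 (4.16 and 3.56) and KRT10 (4.66 and 4.82), differed in opposite directions. Past 1.5-fold were KRT35 (0.69), KRT72 (0.69) and KRT37 (0.65), keratins of hair and its sheath, and on the lower side KRT1 (-0.60), all of them at levels of less than 5. Of all named genes below the limit, 2.02% were 1.5-fold higher and 2.75% lower. The robust SD over these 40 keratins was 0.24. The pseudogene KRT16P2 was measured, with 8.18 and 8.07, and probes were not checked against KRT16 or its other copies. The type III filament gene VIM (vimentin), a common mesenchymal marker that A549 cells also express, was 8.25 and 8.44. Its other probe sets differed by 0.12 and 0.09. Other intermediate filament genes had a median of -0.13 over 5 measured, with 1 higher, 3 lower and 1 equal; lamin A/C (LMNA), of the nuclear lamina, was 7.18 and 7.05 and DES (desmin), of muscle, was 6.72 and 7.09.

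**Figure D3:**
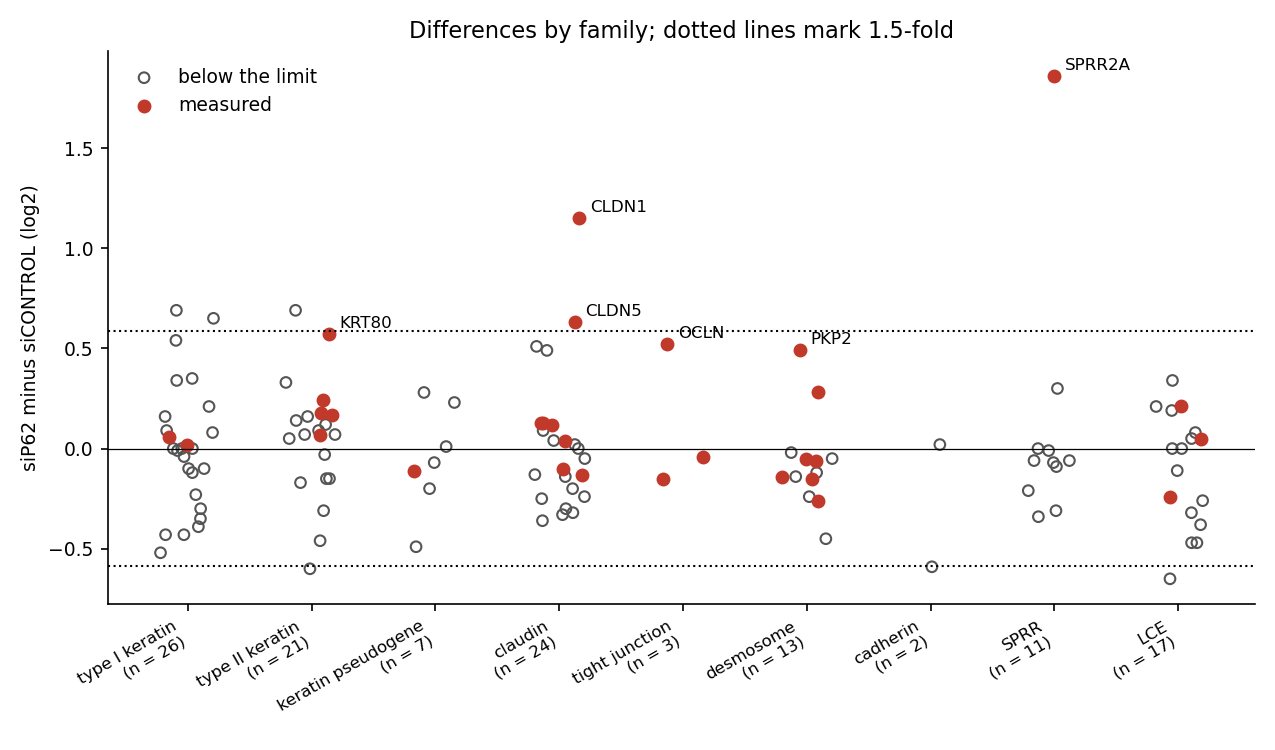
Difference siP62 minus siCONTROL (log2) of the members by family, with measured members in red and members below the limit as open circles. EPCAM, VIM and the antisense RNAs CLDN10-AS1 and DSG2-AS1 are not drawn. Horizontal spread within a family is for display alone. The open circles lie between -0.65 and 0.69, and the labelled measured members with a difference of at least 0.45 are all on the higher side. Of these, SPRR2A and CLDN5 passed the limit through the siP62 array alone, so that they had to be higher.

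SPRR2A was higher in the siP62 array, and the other measured genes of the cornified envelope cluster differed by 0.24 or less. The log2 value of SPRR2A, a small proline-rich envelope precursor, was 4.12 with siCONTROL and 5.98 with siP62. The difference was 1.86 on the log2 scale, and the gene passed the limit through the siP62 array alone. The control value lay near the median of all probe sets in that array, 4.07, so that a fold cannot be stated. The gene was read by 1 probe set, which was not checked against near-identical family members.

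The other SPRR2 genes were low in both arrays and nearly equal between them. SPRR2F was 4.96 with siCONTROL and 4.95 with siP62, SPRR2D was 3.19 and 3.10, and SPRR2B was 2.37 and 2.31. SPRR2E (2.02 and 1.96), SPRR2C (2.89 and 2.82) and SPRR2G (2.86 and 2.65) complete the 6 relatives, none of which was measured and whose differences ran from -0.21 to -0.01. At these levels neither array is shown to lie above background, so near-equal values cannot show that these genes did not respond. In the order of the RefSeq gene table SPRR2A lies between SPRR2D and SPRR2B, whose differences were -0.09 and -0.06. SPRR1A was 4.39 and 4.69, SPRR1B had 2.73 in both arrays, SPRR3 was 4.49 and 4.18, and SPRR4 was 5.14 and 4.80.

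Of the 17 late cornified envelope genes 3 were measured and none differed by 1.5-fold among those. LCE3B was 6.58 with siCONTROL and 6.63 with siP62, LCE3A was 5.60 and 5.81, and LCE2A was 5.41 and 5.17. The other 14 had a median difference of -0.055, with 5 higher, 7 lower and 2 equal, the lowest being LCE2B (-0.65, from 2.60 to 1.95). Over the 27 SPRR and LCE genes without SPRR2A the median was -0.06. The other cornified envelope genes, a list of 29 with 24 on the array, had 8 measured, 5 higher and 3 lower, with a median of 0.08. CNFN (cornifelin), an envelope component, was 6.78 and 7.06, and S100A11, a calcium-binding protein, was 8.18 and 8.41. The 3 lower genes were S100A9 (5.48 and 5.27), KLK8 (6.34 and 6.18) and SBSN (5.56 and 5.44). Of these, S100A9 passed the limit through the siCONTROL array alone. The involucrin gene IVL was below the limit at 3.67 and 3.55. After subtraction of the median difference 4 of the 8 measured genes of this list were higher and 4 lower.

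**Figure D4:**
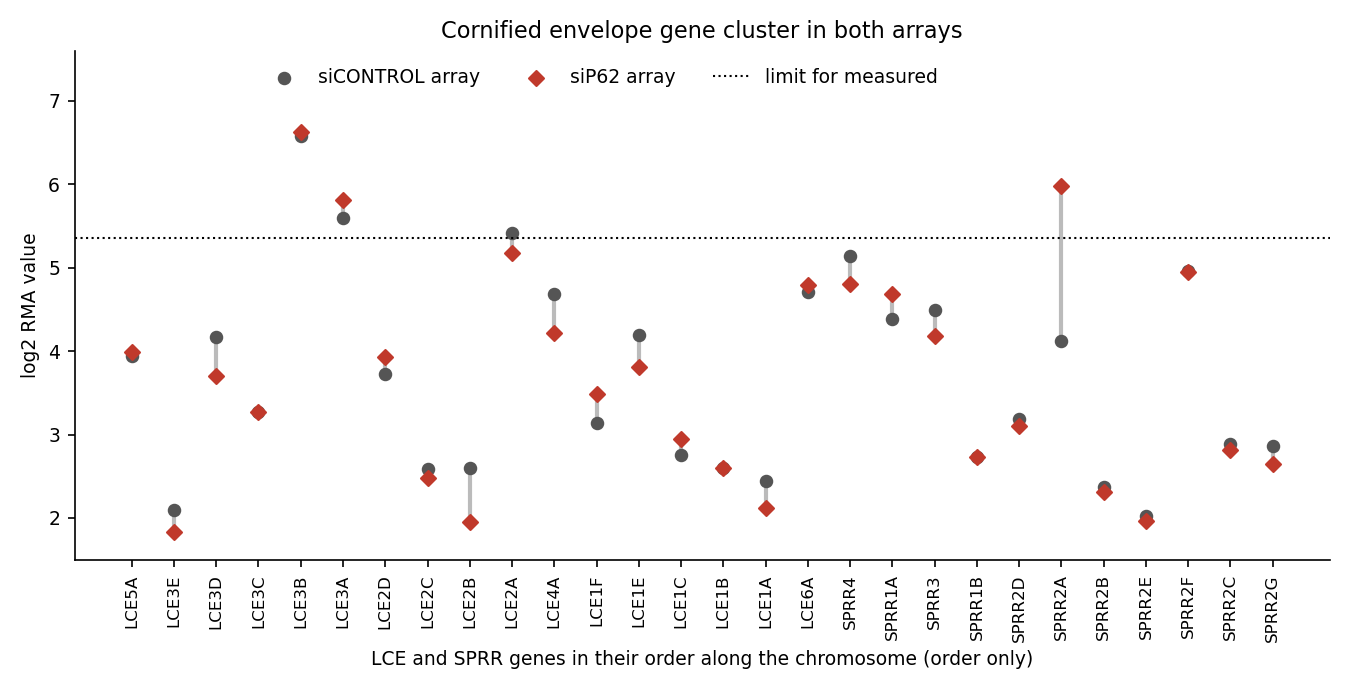
Log2 RMA values of the 17 LCE and 11 SPRR members in the siCONTROL array (grey circles) and the siP62 array (red diamonds), placed in their order along chromosome 1 in the RefSeq gene table; the dotted line is the limit of 5.35. SPRR2A alone crosses the limit upwards, from 4.12 to 5.98. The values of the other 6 SPRR2 genes nearly coincide between the arrays, all of them below the limit.

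Transcription factors that favour epithelial or mesenchymal states went both ways. Of 26 in the list 21 were on the array and 10 measured, 5 higher and 5 lower, with a median of 0.00 and none past 1.5-fold. ZEB1, a repressor of epithelial genes, was 5.76 with siCONTROL and 5.48 with siP62, while SNAI2, another such repressor, was 6.18 and 6.40. TCF4, which also favours the mesenchymal state, was 7.03 and 7.43, and FOXA1, a pioneer factor of lung and other epithelia, was 5.77 and 6.06. The homeobox factor CDX2 of the intestine was 5.47 and 5.05. It passed the limit through the siCONTROL array alone, so that it had to be lower. Over the 9 factors with both arrays at or above the limit the median was 0.06. Among the members below the limit as a whole, 33 were higher, 55 lower and 8 equal, with a median difference of -0.055. All named genes below the limit also leaned lower, with 2946 higher, 3583 lower, 459 equal and a median of -0.02.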

How the data were processed

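Per the labels' protocols, Trizol was used for RNA extraction and 100 ng of total RNA was made into labelled cDNA. The deposited table holds the authors' log2 values for 48226 probe sets in 2 arrays. The submitters' processing notes name Transcriptome Analysis Console 4.0.2.15 and RMA. The genome build, the annotation and the set of arrays normalized together are not given in the sources used. Since RMA makes the arrays alike, a shift common to most genes would not be seen, and precision is limited by the number of arrays.

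The platform annotation gave exactly 1 gene symbol for 16098 probe sets. The other 32128 were left out, and those with no symbol were not counted apart from any with several. All 128 members matched the RefSeq gene table. Differences, counts past 1.5-fold and 2-fold, and medians were computed in Python 3.11.15 (pandas 2.3.3, numpy 2.4.6), after checks on simulated data. No test was possible with 1 array a group. All measured members were named; others were named as the best known of a family or, after their values were seen, as extremes, neighbours or list examples. The members, lists and motifs were chosen with earlier results of these data known. The alternatives were median and lowess centring, quantile normalization, the mean over probe sets, other limits, 2-fold, and leaving out the most different member.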

Additional observations from a re-analysis of the deposited data

How the results depend on the processing

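No paired analysis was possible because each group held 1 array, and no replicate could be left out. Median centring, lowess centring, quantile normalization and the mean over probe sets left the count of members past 1.5-fold at 3 on the higher and 0 on the lower side. The limit mattered more. With both arrays required to pass, 1 of 28 members was 1.5-fold higher, against 1.53% of such genes. With the limit at the 70th percentile (6.67) it was 1 of 19, against 1.75% of 4859 genes. In both CLDN1 was that member. With no limit 6 of 128 were higher and 3 lower, against 2.05% and 2.14% of all named genes. Without a limit the median difference was -0.015 over all 128 members, -0.025 over the claudins, 0.05 over the keratins, -0.06 over the SPRR and LCE genes and 0.015 over the 6 alveolar type II markers on the array. These values take in more genes near background. The median of OCLN, TJP1 and TJP3 turned from -0.04 to 0.24 at the 70th percentile, which leaves out TJP3. At the same limit the median went from 0.125 to 0.04 over the claudins, from 0.17 to 0.07 over the keratins, from -0.06 to -0.10 over the desmosomal members and from -0.04 to -0.28 over the other desmosome and hemidesmosome genes. No SPRR or LCE gene passed that limit, and the cadherins gave no value with any limit. The signs of KRT18 and CLDN3 depended on the centring; that of KRT18 also turned under quantile normalization (-0.06).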
